A study of Capra hircus with 5 samples.

Results

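Gelsolin (GSN) was represented in the deposited table by the unigene comp48182_c0_seq2, which the primer table of the study pairs with the symbol GSN. A unigene is a transcript sequence assembled from the reads without a genome. The assembly placed it in the component comp48182_c0 with 2 further unigenes, comp48182_c0_seq3 and comp48182_c0_seq4, here called seq3 and seq4. The members are therefore 3 of the 118211 unigenes of the table, and they were chosen by their identifier. Seq3 and seq4 are not paired with a gene name, and only the GSN unigene is called GSN below. The study had listed the GSN unigene for its difference between the groups in these same libraries, so every comparison of ovariectomized with control ewes below is a description and no p-value is given for it.

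Gelsolin is a calcium-regulated protein that severs actin filaments and caps their fast-growing ends, and it is the name-giving member of a family of actin-remodelling proteins. A single gene gives a cytoplasmic and a secreted plasma form through different transcript starts, and skeletal muscle is known as a source of the plasma form. Fibroblasts, adipocytes and macrophages, which lie between the muscle fibres, are also known to express it.

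Each library came from the longissimus muscle of a single female hybrid goat, bred from a Boer male and a Guan Zhong dairy female. The 2 control ewes (control 1 and control 3) were untreated, and the labels give no sham operation. The 3 ovariectomized ewes (ovariectomized 2, 4 and 5) lost their ovaries at about 5 months of age, and all 5 were slaughtered on day 50. The methods of the study state that a further sample failed the RNA quality criteria and was not sequenced. The question was how removal of the ovaries changes the transcripts of muscle.

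The libraries held between 36738470 and 39504529 counted reads. Control 3 and ovariectomized 5 stood apart from the other 3 libraries. At least 1 read fell on 81922 and 70704 unigenes in these libraries, against 91215 to 100053 in the others. Their TMM factors, which rescale a library by a trimmed mean over the unigenes tested, were 0.871 and 0.814, against 1.07 to 1.20 in the others. Results are therefore given on both scales, as RPM, the reads per 1000000 counted reads, and as TMM-RPM, the reads per 1000000 of the TMM-corrected total. The muscle label could not be checked against a set of muscle markers, since symbols were paired with 22 unigenes only. Of these, MUSK, a receptor kinase of the muscle fibre at the nerve contact, had at most 1 read in the controls (1 and 0) and 3, 3 and 4 reads in the ovariectomized ewes. The study chose MUSK too from these libraries, and at such low counts nothing is read from its difference.

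The primer pair of the study for comp48182_c0_seq2 is shown because the pairing of the unigene with gelsolin comes from the same table. The forward primer has 26 bases and the reverse primer 21 bases, both written from the 5′ end. The sequence of the unigene and of goat gelsolin was not used here, so the site of the primers on the 3 unigenes was not determined.
GSN forward: ccaacctttacggagacttcttcaca
GSN reverse: tgatgccacgcctcctttctt

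The GSN unigene was higher in every ovariectomized ewe than in both control ewes. Its RPKM, the RPM per kilobase of unigene, was 66.4 in control 1 and 67.6 in control 3. It was 139, 148 and 149 in ovariectomized ewes 2, 4 and 5. The groups did not overlap, and the lowest ovariectomized library was 2.06-fold above the higher control. The means were 67.0 ± 0.867 (SD, n = 2) for the controls and 145 ± 5.27 (SD, n = 3) after ovariectomy, a ratio of 2.17. The 6 ratios between an ovariectomized and a control library lay between 2.06 and 2.24. These values rested on 6782 and 6617 reads in control and on 13719, 14822 and 14111 reads after ovariectomy. In whole muscle, more cells of a type and more RNA per cell cannot be told apart.

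**Figure D1:**
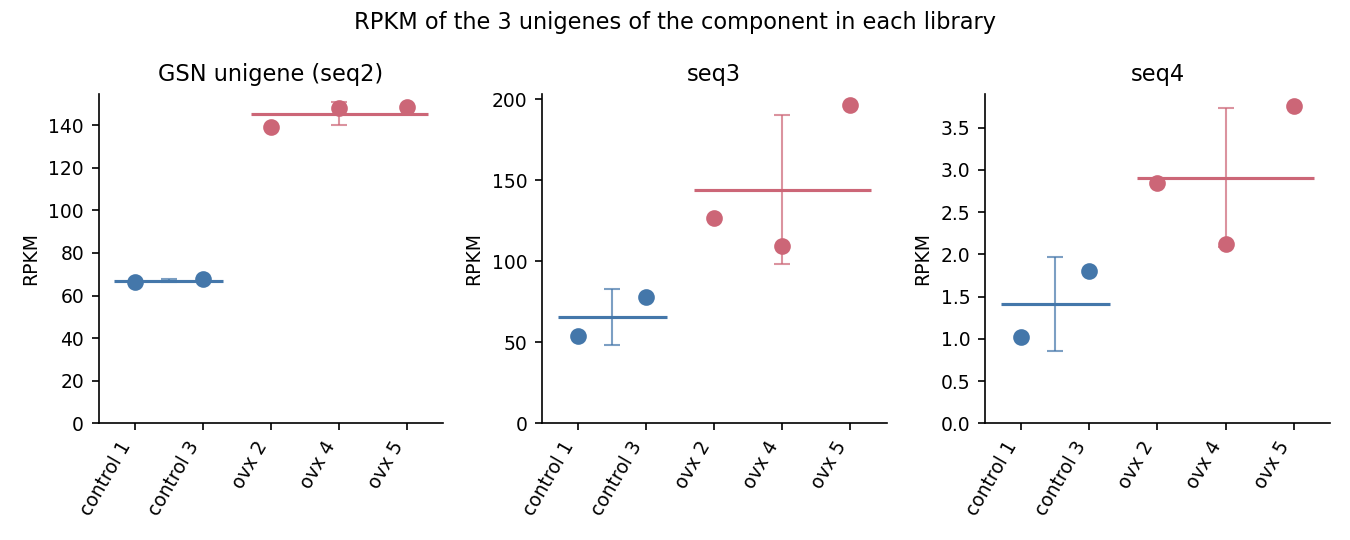
RPKM (vertical axis, linear from 0) of the GSN unigene, seq3 and seq4 in each of the 5 libraries (horizontal axis, ovx = ovariectomized). Points are libraries, horizontal lines are group means and bars are ± 1 SD. By RPKM all 3 unigenes are higher in the 3 ovariectomized libraries, although in TMM-RPM (reads scaled by the TMM factors) seq4 of ovariectomized 4 lies below that of control 3, and relative to their means the points of seq3 and seq4 are more widely spread within a group than those of the GSN unigene.

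On the edgeR scale, which applies the TMM factors, the log2 fold change of the GSN unigene was 1.07 (standard error 0.40, n = 2 and 3). The study's own rule asked for a log2 ratio of mean RPKM past 1 in either direction, and the GSN unigene, at 1.12, lay close to this limit. The rule also asked for a p under 0.05, from a test that is not given in the sources used here. When a test of the group means of RPKM that allows unequal variances was chosen here to stand in for it, 1612 unigenes passed. Of these, 718 were higher after ovariectomy. The study reported the same total past its rule and the same number higher, although it does not name its test. The GSN unigene was among the unigenes that passed here, which restates how it was chosen. The log2 ratios of mean RPKM of seq3 and seq4, 1.13 and 1.04, were also past 1, but neither was among the 1612. The GSN unigene had more reads than any other of the 1612, with a mean of 11210 reads per library. The next had 7566, and the median over the 1612 was 1.6. Only 4 of the 1612, the GSN unigene among them, had a mean of at least 1000 reads, and the GSN unigene held 29.4% of all reads counted on the 1612.

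The small spread of the GSN unigene within the groups held on the scale of counted reads and not on the TMM scale. In RPM its level was 172 in control 1 and 175 in control 3, with counting intervals (95%, exact Poisson) of 168 to 176 and 171 to 179. The intervals of the controls overlapped. After ovariectomy it was 360, 383 and 384 in ovariectomized 2, 4 and 5. The interval of ovariectomized 2 (354 to 366) lay below those of ovariectomized 4 (377 to 389) and ovariectomized 5 (378 to 390), and the latter pair overlapped. The coefficient of variation was 1.29% in control and 3.63% after ovariectomy, where counting alone gives about 1.21% to 1.23% and 0.821% to 0.854%. All of these intervals cover counting error only, since PCR copies were not marked.

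In TMM-RPM the GSN unigene was at 157 in control 1 and 201 in control 3. It was at 300.0, 357 and 472 in ovariectomized ewes 2, 4 and 5. On this scale too the groups did not overlap, but the lowest ovariectomized library was only 1.49-fold above the higher control, which is the lowest of the 6 ratios between libraries. The coefficient of variation rose to 17.2% in control and 23.3% after ovariectomy. The highest library of each group was control 3 or ovariectomized 5, the libraries with the lowest TMM factors and the fewest detected unigenes, and the part of library composition in these values was not tested. Without both of these libraries the log2 fold change was 1.06 (standard error 0.66), from 1 control and 2 ovariectomized ewes.

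**Figure D2:**
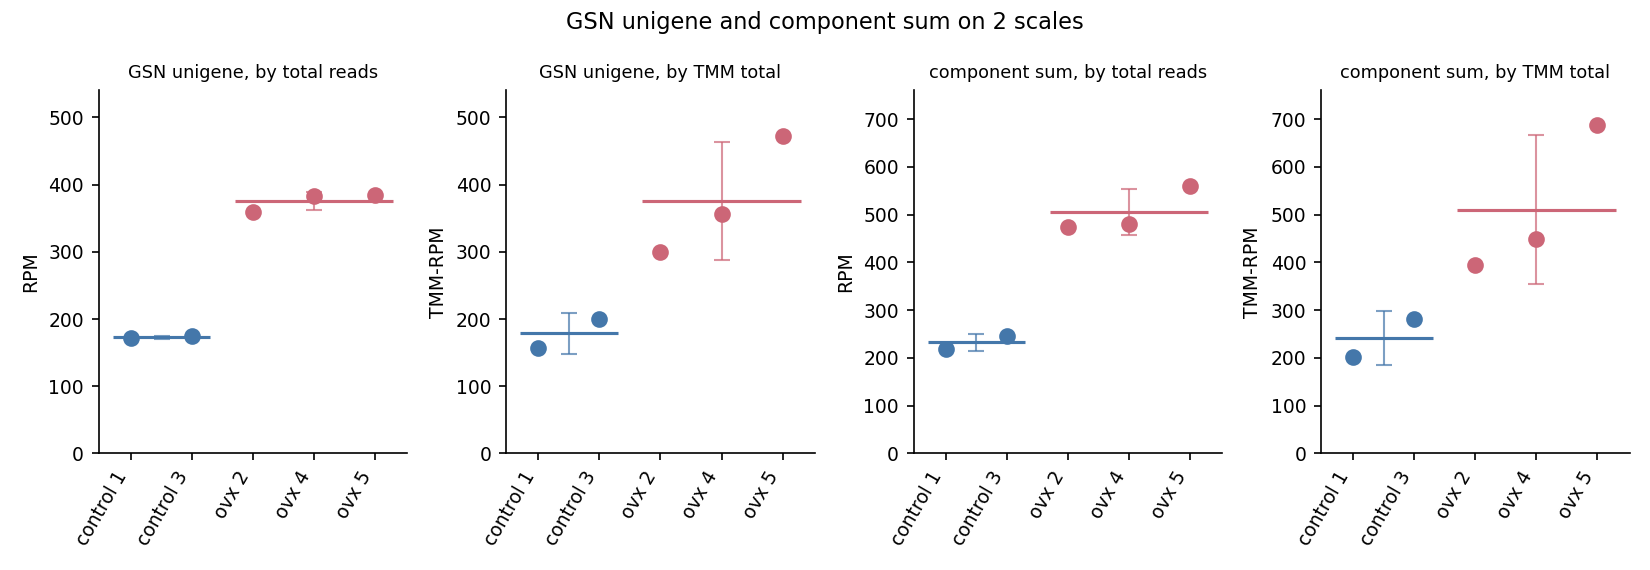
Level (vertical axis, linear from 0) of the GSN unigene and of the sum over its component in each library, as RPM (by total reads) or as TMM-RPM (by TMM total). Points are libraries, lines are group means and bars are ± 1 SD. The GSN unigene is nearly level within each group by counted reads, and spreads from 157 to 201 in control and from 300.0 to 472 after ovariectomy by the TMM-corrected total.

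Set beside other unigenes of like depth, the level within groups was more even than that of most by counted reads. Among the 561 unigenes with between 0.5 and 2 times its mean read number, itself included, the median coefficient of variation of RPKM was 19.9% in control and 28.4% after ovariectomy. In control 3.03% of these unigenes had a lower value than the GSN unigene, and after ovariectomy 0.891% had. On the TMM scale the medians were 24.4% and 35.3%, and 35.1% and 21.0% of the unigenes had a lower value. A low spread was part of what chose the GSN unigene, so these shares describe the choice and support nothing further.

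Of the 36741 unigenes with a mean of at least 10 reads, 4.92% were higher in every ovariectomized library than in both controls by RPKM. All 3 members were of this kind. A further requirement of at least 2-fold between the means left 1.24% of these unigenes, and all 3 members again met it. On the TMM scale 4.75% were higher in every ovariectomized library, among them the GSN unigene and seq3 but not seq4. Among the 3574 unigenes with a mean of at least 1000 reads, 0.476% (17 unigenes) were higher in every ovariectomized library and at least 2-fold. The GSN unigene and seq3 were of this number. The contrast had chosen the GSN unigene, so nothing is read from its place in these counts.

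**Figure D3:**
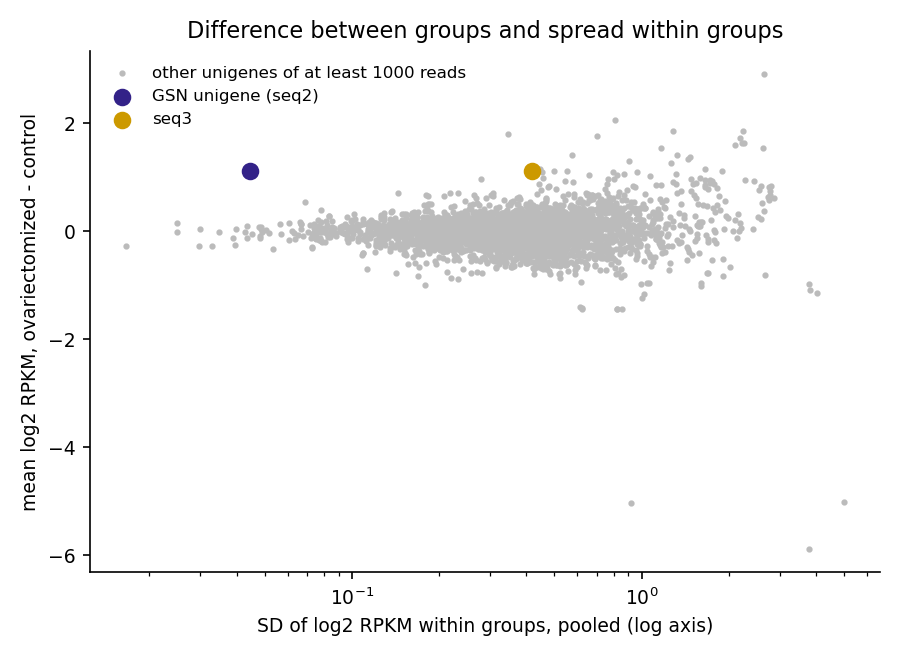
Difference of mean log2 RPKM between ovariectomized and control libraries (vertical axis) against the SD of log2 RPKM within groups, pooled over both groups (horizontal axis, log scale), for the 3573 unigenes with a mean of at least 1000 reads and a value above 0 in every library. The GSN unigene lies at a difference of 1.12 and an SD of 0.045, and seq3 at 1.11 and 0.42. The median unigene lies at 0.01 and 0.37. No other of these unigenes had both a difference as high and an SD as low as the GSN unigene, whose place follows from how the study chose it.

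Seq3, of 874 bp against 2585 bp for the GSN unigene, was also higher in every ovariectomized library, with a wider spread. Its RPKM was 53.6 in control 1 and 77.9 in control 3. After ovariectomy it was 127, 110 and 196 in ovariectomized ewes 2, 4 and 5. The means were 65.8 ± 17.1 (SD, n = 2) and 144 ± 45.8 (SD, n = 3), a ratio of 2.19 that is close to that of the GSN unigene. The 6 ratios between libraries, however, ran from 1.41 to 3.65. The highest libraries were control 3 and ovariectomized 5, as for the GSN unigene.

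With the TMM factors the log2 fold change of seq3 was 1.11 (standard error 0.53, edgeR). With 1 library left out it was 0.58 without ovariectomized 5, 0.73 without control 1, 1.61 without control 3, 1.33 without ovariectomized 2 and 1.32 without ovariectomized 4. Control 1 stood at 42.9 and control 3 at 78.1 TMM-RPM, while ovariectomized 2, 4 and 5 stood at 92.2, 89.3 and 210. On this scale the lowest ovariectomized library was 1.14-fold above the higher control, and ovariectomized 2 and 4 lay closer to control 3 than to ovariectomized 5.

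Seq4, of 1217 bp, was a minor member. The controls had 49 (control 1) and 83 reads (control 3), and ovariectomized 2, 4 and 5 had 132, 100 and 168. The RPKM was 1.41 ± 0.554 (SD, n = 2) for the controls and 2.91 ± 0.819 (SD, n = 3) after ovariectomy, a ratio of 2.06. By RPKM the groups did not overlap, but the TMM-scaled level of ovariectomized 4, 2.41 TMM-RPM, was below the 2.52 of control 3. In edgeR the log2 fold change of seq4 was 0.99 (standard error 0.54), and it was 0.54 without ovariectomized 5, 0.51 without control 1 and 1.67 without control 3.

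Reads of similar unigenes can be divided between them, on which the sum of a component does not depend, and how a read that fits several unigenes was counted is not given in the sources used here. The sum over the component was 8683 reads in control 1 and 9276 in control 3. It was 18071, 18631 and 20574 reads in ovariectomized 2, 4 and 5. In RPM this was 232 ± 17.9 (SD, n = 2) for the controls and 505 ± 47.6 (SD, n = 3) after ovariectomy, a ratio of 2.17, with the groups not overlapping. Of 23455 components with a mean of at least 10 reads, 1.59% were higher in every ovariectomized library and at least 2-fold. The log2 fold change of the sum was 1.06 (standard error 0.44, edgeR on sums per component). For seq3 and seq4 summed without the GSN unigene it was 1.09 (standard error 0.51).

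The division of the reads within the component varied between animals, while the group means were nearly equal. The GSN unigene took 78.1% of the component reads in control 1 and 71.3% in control 3. It took 75.9%, 79.6% and 68.6% in ovariectomized ewes 2, 4 and 5. The means were 74.7 ± 4.79% (SD, n = 2) for the controls and 74.7 ± 5.59% (SD, n = 3) after ovariectomy, a difference of -0.03 percentage points. The groups overlapped completely, in that the controls lay between the lowest and the highest ovariectomized library. Leaving out 1 library moved the difference to between -3.42 and 3.35 percentage points.

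The share varied between the libraries of each group. The exact 95% binomial interval, which covers counting error only and not that between libraries, was 77.2% to 79.0% in control 1 and 70.4% to 72.3% in control 3. The intervals of ovariectomized 2 (75.3% to 76.5%), 4 (79.0% to 80.1%) and 5 (67.9% to 69.2%) did not overlap either. The libraries with the lowest share of the GSN unigene were control 3 and ovariectomized 5, and seq3 took 27.8% and 30.6% of the reads there, against 19.9% to 23.4% elsewhere. Seq4 took 0.537% to 0.895%. That these are the libraries with the fewest detected unigenes is a measured fact, and its part in the division of the reads was not tested.

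**Figure D4:**
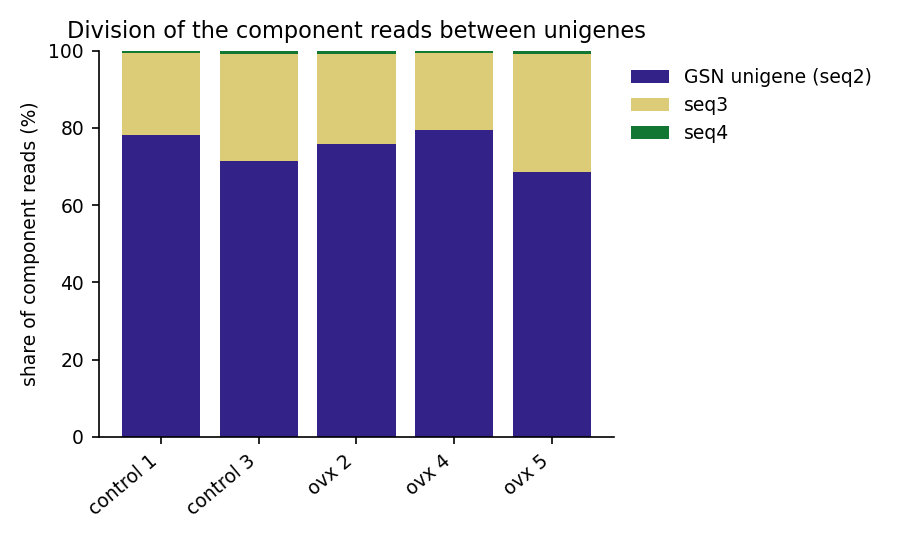
Share of the reads of the component (vertical axis, percent) that fell on the GSN unigene, seq3 and seq4 in each library (horizontal axis, ovx = ovariectomized). The share of the GSN unigene lies between 68.6% and 79.6% in all 5 libraries, and is lowest in control 3 and ovariectomized 5.

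Corrected for length, the GSN unigene and seq3 were present at nearly the same mean level. Over the 5 libraries the mean RPKM was 114 for the GSN unigene and 113 for seq3, which put them at rank 571 and 573 of the 118211 unigenes. The ratio of the RPKM of seq3 to that of the GSN unigene was 0.808 and 1.15 for controls 1 and 3, and 0.910, 0.740 and 1.32 for ovariectomized 2, 4 and 5. Seq3 was thus the more abundant per length only in control 3 and ovariectomized 5. The ratio averaged 0.980 ± 0.243 (SD, n = 2) for the controls and 0.990 ± 0.298 (SD, n = 3) after ovariectomy, means that lay closer together than the animals of a group did. Seq4, with a mean RPKM of 2.31, lay at rank 12076.

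By RPKM the GSN unigene was among the top 0.742% and 0.750% of all unigenes in the controls, at ranks 877 and 887. After ovariectomy it was among the top 0.381% to 0.420%, at rank 462, 450 and 497 in ovariectomized ewes 2, 4 and 5. Its mean RPKM was 590-fold above the median unigene, which had an RPKM of 0.193. By reads, which favour long unigenes, it held ranks 635 and 615 among the controls, and 296, 295 and 302 among the ovariectomized libraries. Its length of 2585 bp exceeded that of 90.8% of the unigenes, whose median was 382 bp.

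Of the 22 unigenes with a symbol in the primer table, GSN was the most abundant per length. DUSP2, a phosphatase that acts on MAP kinases, came next with a mean RPKM of 2.32, 49.1-fold below GSN. The lowest, LAMA1, a laminin chain of basement membranes, had a mean RPKM of 0.0928, from 0.8 reads per library. TNFRSF18 and CSF2 are among the 22 and are known from activated lymphocytes. No other of the 22 was looked at as a lymphocyte marker. TNFRSF18, a receptor of T cells, had 5 and 11 reads in the control ewes against 25, 17 and 27 in the ovariectomized ewes, and the groups did not overlap. CSF2, a growth factor of myeloid cells, had 0 reads in both controls and 2, 2 and 3 reads after ovariectomy, which is not distinguishable from no reads at this depth. Summed, the reads of both genes were 5 and 11 in the controls and 27, 19 and 30 in the ovariectomized ewes, nearly all from TNFRSF18. The study chose these genes from the same libraries, and the part of other cell types in the level of GSN was not tested.

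The study placed the GSN unigene in the gene ontology classes of actin filament capping, actin binding, the cytoskeleton and cilium morphogenesis, and listed 4 other unigenes in these classes. It chose them from these same libraries, so their directions are no independent evidence. All 4 were read far less than GSN, with at most 6 reads in a library. In actin binding, MAP1B, a microtubule-associated protein, had 1 read in each control and 3, 3 and 2 reads after ovariectomy. An unnamed unigene of 300 bp in the same class had 1 read in each control and 3, 2 and 3 reads. Among the cytoskeleton unigenes, FGD5, an exchange factor for a small GTPase that shapes the actin cytoskeleton, had 6 reads in each control and 3, 2 and 0 reads after ovariectomy. For an unnamed unigene of 340 bp the controls had 5 and 4 reads and the ovariectomized ewes 0, 1 and 0.

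By reads the groups did not overlap in any of the 4, with 2 higher and 2 lower after ovariectomy, beside 7.88% in either direction among the 57283 unigenes with 1 to 6 reads in their highest library. The study chose the 4 by this contrast, so nothing is read from that count. None had enough reads to be kept by edgeR's filterByExpr, which retained 39543 unigenes. In the edgeR test without a filter 0 of the 4 passed at an adjusted p under 0.05, and 0 at an unadjusted p under 0.05, beside 0.446% and 2.72% of all 118211 unigenes. DESeq2 left the adjusted p of all 4 undefined. With filterByExpr, edgeR called 0 of the 39543 unigenes (0% of them), with 339 at an unadjusted p under 0.05, while DESeq2 called 27 and limma 3 or 2 of the same unigenes, according to the pseudocount.

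The pattern of the GSN unigene over the 5 libraries was compared with 16985 unigenes outside its component that had a mean of at least 100 reads and a value in every library. The measure was the largest difference, over the libraries, between log2 RPKM profiles each centred on its own mean. The nearest unigene, comp40376_c0_seq1, which the study listed under sulfiredoxin activity, differed by up to 0.26. Its read number was 133 in control 1, 129 in control 3, and 347, 361 and 255 in the ovariectomized ewes. The ratio of its mean RPKM was 2.50. The next, comp45083_c0_seq1, of 1719 bp and not paired with a name, differed by up to 0.26 as well. Its read number was 200 in control 1, 252 in control 3, and 473, 474 and 375 in the ovariectomized ewes. Mean RPKM was 3.41 ± 0.657 (SD, n = 2) in the former and 6.76 ± 0.714 (SD, n = 3) in the latter. Both had their lowest ovariectomized value in ovariectomized 5, where the GSN unigene had its highest. The GSN unigene was chosen by its difference between the groups, and a unigene near its pattern must share that difference. Nothing is therefore read from the direction or size of these ratios.

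By the same measure seq3 and seq4 were less like the GSN unigene, at 0.46 for both, and 61 and 72 unigenes outside the component were nearer. The largest gap of seq3 from the GSN unigene was in ovariectomized 5, where its centred log2 RPKM was 0.93 against 0.48. The largest gap of seq4 was in ovariectomized 4, at 0.01 against 0.47.

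Across the ways of estimating it, the log2 fold change of the GSN unigene stayed between 0.87 and 1.26. The lowest value came without ovariectomized 5 (0.87, standard error 0.40) and the highest without control 3 (1.26, standard error 0.71). With 1 control ewe left, the standard error assumes that this ewe varies like the ovariectomized ewes. DESeq2 gave 1.09 (standard error 0.39) and limma on log2(RPKM + 1) gave 1.10 (standard error 0.19). Library totals without TMM factors gave 1.12 (standard error 0.29).

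**Figure D5:**
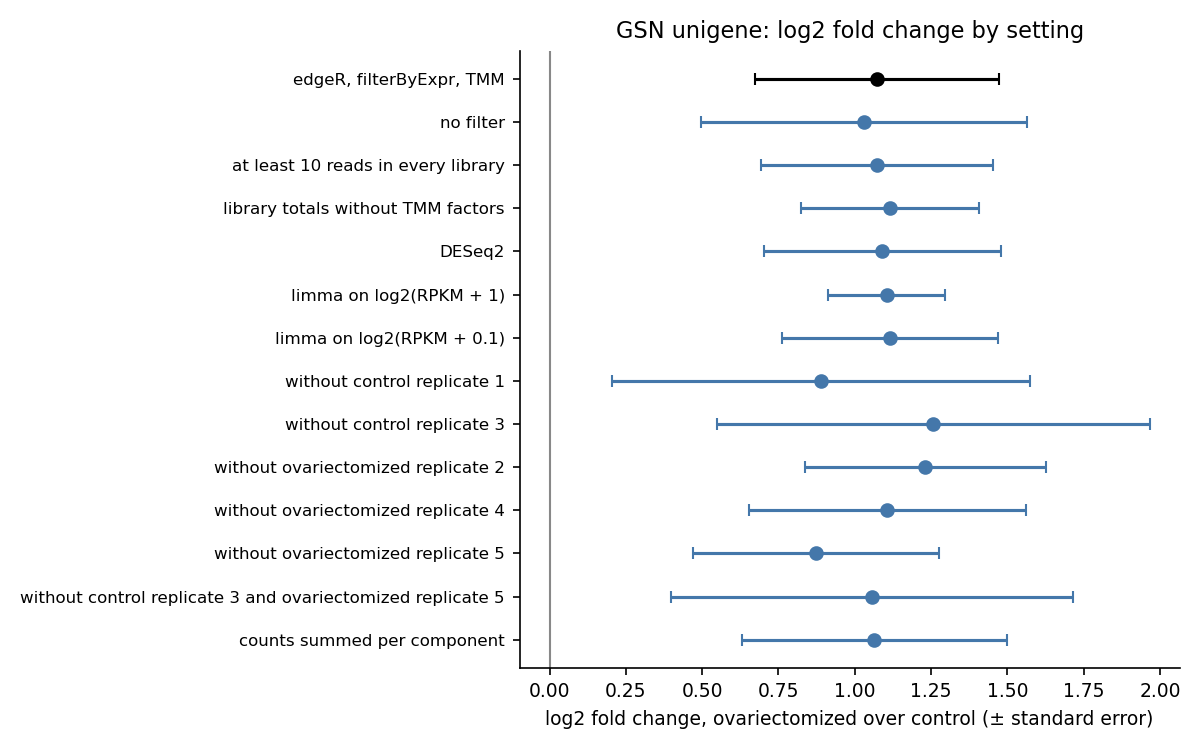
Log2 fold change of the GSN unigene, ovariectomized over control (horizontal axis), under each setting (vertical axis). Points are estimates and bars are ± 1 standard error, and the black point is the edgeR fit with filterByExpr and TMM. Every estimate shown lies between 0.87 and 1.26.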

How the data were processed

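Libraries of polyA RNA from 2 control and 3 ovariectomized ewes were analysed, grouped and numbered by their labels. The authors assembled unigenes with Trinity, mapped reads with Bowtie 0.12.8 as single ends, and deposited several measures per unigene. The deposited values were raw counts, RPKM and the length (another kind of value). The authors also deposited an adjusted p-value for each unigene from their comparison of the groups, which was not used. The other deposited table repeats the counts and RPKM. RPKM equalled the count divided by length and library total. Each library held 36738470 to 39504529 counted reads.

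The members and lists were chosen with earlier results of these data known. Symbols come from the primer table of the study, and RefSeq's goat table (assembly ARS1.2) holds GSN. No coordinates are given, since no genome was used. Counts were fitted with edgeR 4.0.16 in R 4.3.3 (filterByExpr, TMM, quasi-likelihood test, two-sided, Benjamini-Hochberg), since without this filter the prior degrees of freedom were infinite, against 4.40 with it. Alternatives were DESeq2 1.42.0, limma 3.58.1 on log2(RPKM + 1) and log2(RPKM + 0.1), no TMM factors, no filter, at least 10 reads in every library, sums per component, the ratio of mean RPKM, and libraries left out. The same alternatives for seq3 and seq4 were added after the data were seen. Named unigenes were the 3 members, the listed unigenes of the gene ontology classes of GSN, 3 marker genes and the 2 unigenes most like GSN, and DUSP2 and LAMA1 were added after their values were seen. On counts simulated for this comparison over 39543 unigenes, edgeR recovered 86 of 100 unigenes changed by a log2 of 3 and 98 of 100 changed by 6, with 9 wrong calls, and DESeq2 recovered 89 and 96, with 33 wrong calls. The simulation held no change as small as that of the GSN unigene and added no differences in library composition. It therefore says nothing on the power for a change of about 2-fold. Descriptions and plots were made in Python 3.11.15 with scipy 1.17.1, pandas 2.3.3, matplotlib 3.10.9 and numpy 2.4.6.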

Additional observations from a re-analysis of the deposited data

How the results depend on the processing

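The log2 fold changes of the GSN unigene and of the component sum were positive under all 14 and all 9 alternatives. They moved by less than the spread between libraries in TMM-RPM (0.31 and 0.40, the SD within groups on the log2 scale). With 1 library left out they lay between 0.87 and 1.26 and between 0.80 and 1.34. The difference between the groups in the share of component reads on the GSN unigene also moved by less than the SD of the share, 5.33 percentage points. With 1 library left out this difference lay between -3.42 and 3.35 percentage points. The rank of the GSN unigene, 571 by RPKM, was 387 by reads, 511 among unigenes of at least 500 bp and 433 with 1 unigene per component, and lay between 523 and 610 with 1 library left out. The number of unigenes higher in every ovariectomized library and at least 2-fold, 454, was 81 with a mean of at least 100 reads and 4244 with every unigene of at least 1 read. It lay between 704 and 2978 with 1 library left out, being highest without control 1. With fewer libraries the requirement on every library is easier to meet, and why the number was highest without control 1 was not tested. The number of unigenes called over the whole table, 0 in edgeR with filterByExpr, was 527 without a filter, 27 in DESeq2, 3 in limma on log2(RPKM + 1) and 2 on log2(RPKM + 0.1), and between 0 and 104 with 1 library left out. The 104 came without control 3, and the cause was not tested. Of the actin and cytoskeleton list, edgeR without a filter was the only one of the fits made for it that gave adjusted p-values, and it called 0 of the 4. No paired analysis was possible because the groups share no replicate number. With groups of 2 and 3, single outlying libraries could not be tested, and counts of 3 reads or fewer do not tell presence from absence.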
